A study of Mus musculus with 4 samples.

Results

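The 10 genes described here encode the channels that let calcium out of its intracellular stores (Ryr2, Ryr3, Itpr1 and Itpr2) and the proteins that carry it out across the plasma membrane (the exchangers Slc8a1, Slc8a2 and Slc8a3 and the pumps Atp2b1, Atp2b2 and Atp2b4). They were taken by name from the 45706 features of the count files, and all 10 were present and passed the filter on low counts. Their levels were followed through the clusters of adult-born granule cells and in the glia of the same libraries.

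The nuclei came from the left dentate gyrus of mice with a tamoxifen-inducible Cre recombinase and the reporter CAGfloxStop-Sun1sfGFP, on a C57Bl/6J background, of both sexes and 6 to 8 weeks of age. Every animal carried both alleles and received tamoxifen, and nuclei were collected 1, 2, 4 or 8 weeks later (w1, w2, w4 and w8). The nuclear envelope reporter used for sorting marks the cells in which Cre was active at the time of tamoxifen and whatever descends from them, and no untreated group was included. Each week is 1 library from a pool of 4 dentate gyri, so weeks were not tested against each other. The clusters are those of the study, namely astrocytes (Astro), radial glia-like cells (RGL), cycling progenitors (NPC), neuroblasts (NB1 and NB2), immature granule cells (GCimm1 and GCimm2), young granule cells (GCyoung), mature granule cells (GCmat1 and GCmat2), oligodendrocyte precursor cells (OPC), oligodendrocytes (Oligo) and pericytes (Peri).

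Calcium that enters a neuron or leaves the endoplasmic reticulum must be returned to a low resting level, and each of these steps has its own proteins. Ryanodine receptors open when calcium itself binds them, whereas IP3 receptors need inositol trisphosphate, made by phospholipase C after activation of surface receptors, and this route underlies most store release in astrocytes. Sodium-calcium exchangers remove large loads by letting sodium in, and the plasma membrane pumps, the PMCA family, use ATP to clear the remainder with high affinity.

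The 4 libraries held between 2867 and 4243 nuclei and between 13227971 and 28595331 UMIs. Of the w4 barcodes 3831 of 5459 were kept, and the nuclei that the authors removed there included clusters, mostly male, that they judged a possible outlier animal. Any 2 libraries shared at most 7 barcodes, and at most 6 among the nuclei kept. The cluster names were checked against markers of each cell type: all 5 astrocyte, 4 OPC and 5 oligodendrocyte markers peaked in their own cluster, as did all 4 markers of cycling progenitors in NPC. Of the 5 RGL markers 3 were highest in RGL, 1 in pericytes and 1 in OPC, and of the 5 vascular markers 3 were highest in pericytes. Markers of microglia summed to between 22.1 and 55.6 UMIs per 1000000 (CPM) over the 13 clusters. Clusters and weeks overlapped in part: NB1 came from w1, w2 and w4, whereas 2927 of the 3356 GCmat1 nuclei came from w8, and w1 and w2 held 17 and 9 of them. The paper, too, saw GCmat1 mainly in w8. The 17 nuclei of w1 had a median pseudo-time of 29.7, beside 30.1 in w8. Whether they descend from stem cells labelled 1 week before was not tested, so GCmat1 values of w1 are read with that limit.

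All 10 genes lie on autosomes in the GRCm38 assembly. Both ryanodine receptor genes are long, Ryr2 at chr13:11553102-12106945 on the minus strand and Ryr3 at chr2:112631355-113217096 on the minus strand. UMIs were counted over exons and introns, so long genes offer more sequence to prime from, and levels are compared between clusters for 1 gene rather than between genes. Ryr3 overlaps Aven on the opposite strand, which held 6.64% as many UMIs. The antisense genes Gm3693 at Slc8a3 and Gm15083 at Atp2b2 held 3.61% and 2.76% as many UMIs as the gene they overlap. The remaining overlapping genes, at Ryr2, Itpr1, Itpr2, Slc8a1, Atp2b2 and Atp2b4, held less than 0.1% of the member's UMIs, and the strand setting of the counting is not given in the sources used here.

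The 250 bases before the start of Ryr2, Itpr2 and Slc8a1 are shown because these genes took unlike courses in the lineage, a rise, a fall and an arch, which do not cover the courses of all members. The sequences are from RefSeq on GRCm38.p6, all on the minus strand and written 5′ to 3′. Capitals mark the motifs searched on both strands, the E-box CAGNTG that basic helix-loop-helix factors can bind, the GC box GGGCGG and the cyclic AMP response element TGACGTCA. Motifs of different kinds shared no base in these windows.
Ryr2 at chr13:12106946-12107195: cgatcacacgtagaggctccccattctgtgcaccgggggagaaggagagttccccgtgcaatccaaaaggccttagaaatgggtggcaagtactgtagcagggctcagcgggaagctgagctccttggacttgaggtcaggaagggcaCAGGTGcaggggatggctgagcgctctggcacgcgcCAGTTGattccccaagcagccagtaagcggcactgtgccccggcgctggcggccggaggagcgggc
Itpr2 at chr6:146502224-146502473: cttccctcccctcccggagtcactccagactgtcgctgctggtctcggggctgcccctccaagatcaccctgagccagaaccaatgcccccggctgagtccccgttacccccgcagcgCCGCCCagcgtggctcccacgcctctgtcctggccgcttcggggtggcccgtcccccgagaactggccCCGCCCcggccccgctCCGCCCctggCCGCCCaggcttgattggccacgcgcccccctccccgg
Slc8a1 at chr17:81738388-81738637: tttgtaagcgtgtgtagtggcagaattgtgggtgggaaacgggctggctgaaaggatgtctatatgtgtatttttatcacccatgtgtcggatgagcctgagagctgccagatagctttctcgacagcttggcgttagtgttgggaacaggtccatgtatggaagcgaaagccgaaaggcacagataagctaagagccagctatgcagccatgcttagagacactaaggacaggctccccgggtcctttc
The Ryr2 window held 2 E-boxes and no GC box, the Itpr2 window 4 GC boxes and no E-box, and the Slc8a1 window none of the 3 motifs. Over all 32851 promoter windows of this length, 44.8% held an E-box, 32.7% a GC box and 1.55% the cyclic AMP response element. The G and C content was 63.2% for Ryr2, 74.4% for Itpr2 and 50.4% for Slc8a1, beside a median of 52.4% over all windows. A match is a description of letters only, and promoter windows were found for 8 of the 10 genes.

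**Figure D1:**
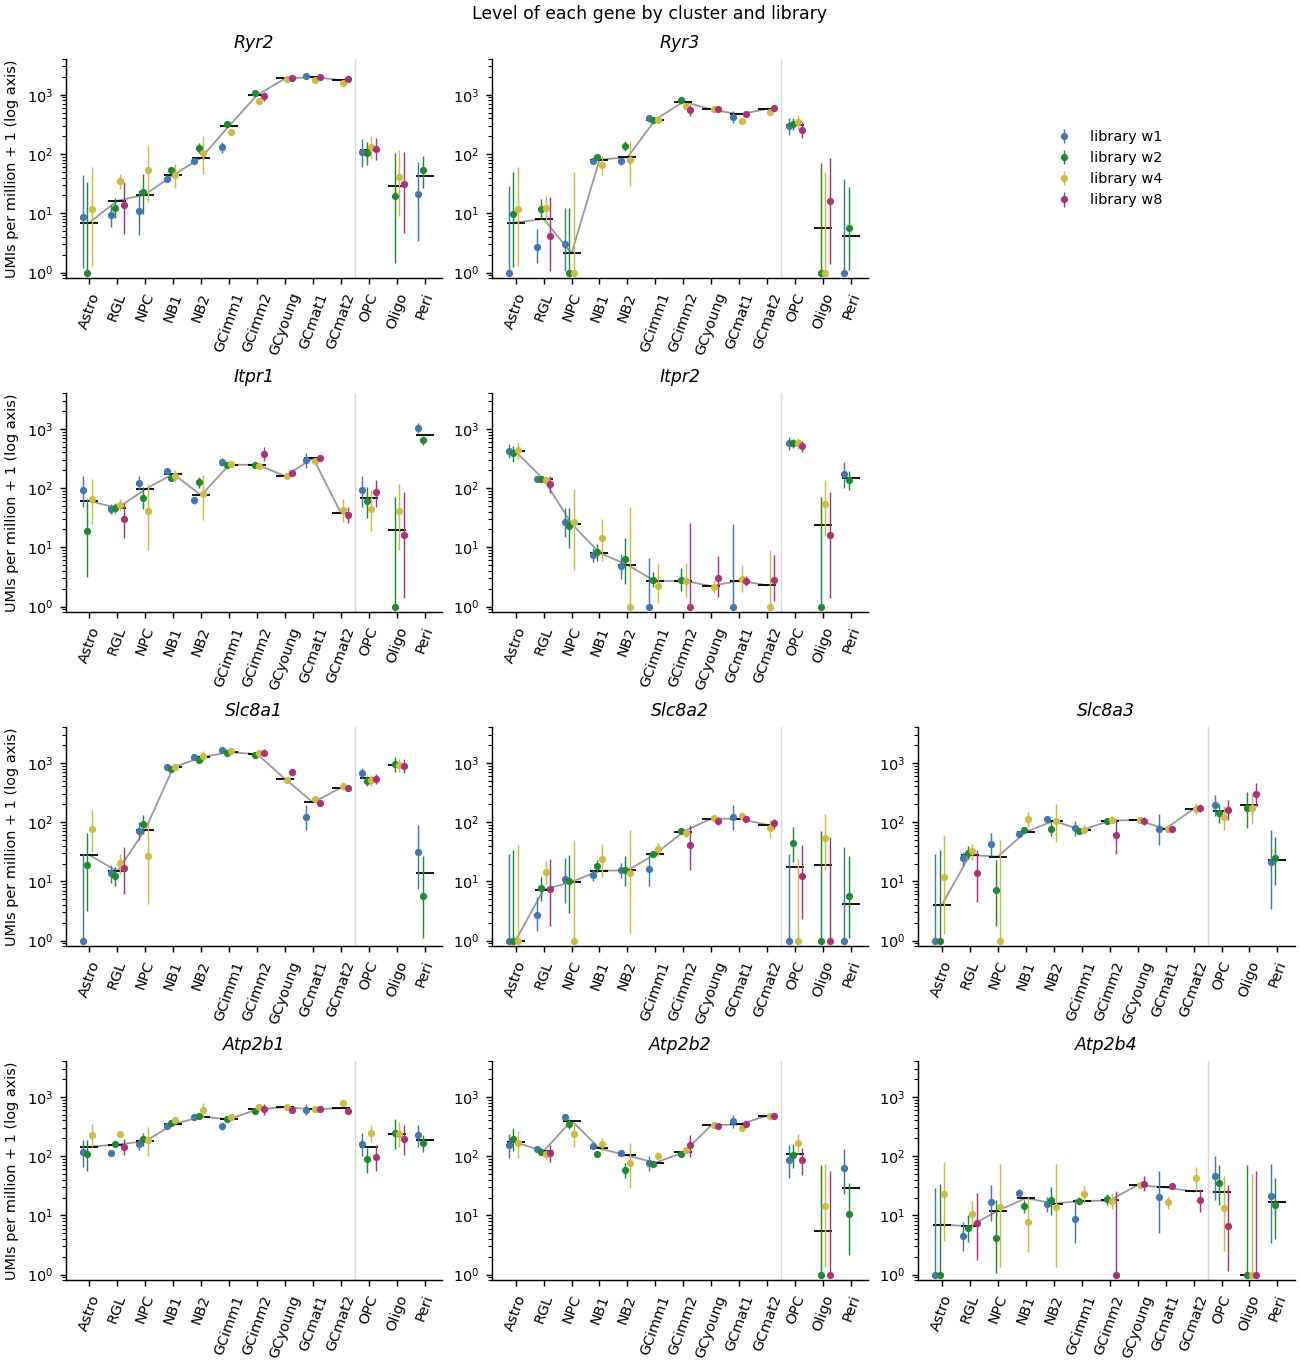
Level of each of the 10 genes in UMIs per 1000000 plus 1 (log axis) by cluster. Points are libraries with at least 10 nuclei in the cluster, with 95% Poisson intervals that cover counting error only. Black bars are the pooled level. The grey line joins the pooled levels from Astro to GCmat2 in plotting order, and not all of its segments are steps of the lineage. Ryr2 climbed from 15.2 CPM in RGL to 1988 CPM in GCmat1, Itpr2 ran the other way, and Slc8a1 peaked in GCimm1 at 1509 CPM.

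For tests, UMIs were summed per library and cluster, and a change was called where the fold reached 1.5 and the adjusted p was no more than 0.05, by edgeR's quasi-likelihood test with cluster and library as terms and Benjamini-Hochberg adjustment over all genes tested. The libraries are the replicates. The clusters were drawn on the same expression values, so these p-values are no independent evidence that the clusters differ. They set a difference against the spread left after the cluster and library terms, estimated over all sums of a fit. For the trajectory and astrocytes these were 29 sums with 16 residual degrees of freedom. The test also moderates each gene's spread toward the trend over all genes, so part of its degrees of freedom comes from other genes. The spread used is therefore not that within the compared clusters alone.

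Among single steps, the members were called most often from NPC to NB1, at the exit from the cell cycle. At this step 8 of the 10 genes were called, 6 higher and 2 lower, where 29.3% of all genes tested were called. From NB1 to GCimm1, 6 were called, 5 of them higher (12.5% of all genes), and from GCimm1 to GCimm2 again 6, all higher (9.43%). From GCimm2 to GCyoung 5 were called, 4 of them higher (18.9%). The counts of the last 2 steps changed with the libraries fitted. Without w2, 2 genes were called from GCimm1 to GCimm2, and without w4, 2 from GCimm2 to GCyoung. Over all genes, calls dropped in the same fits from 1274 to 410 and from 2553 to 487. At both steps each called gene moved the same way in both libraries that held the compared clusters.

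From RGL to NPC 4 were called, of which 3 were higher (29.5% of all genes), and from NB1 to NB2 1 higher and 1 lower (2.94%). Between astrocytes, which lie outside the lineage, and RGL 1 was called, lower in RGL (9.58%). From GCyoung to GCmat1 1 was higher and 1 lower (3.85%), and from GCmat1 to GCmat2 2 were higher and 1 lower (7.3%). Across the whole stretch from NB1 to GCmat1, 9 were called, 7 of them higher, where 40.1% of all genes were. In a fit of all clusters, 6 were higher in OPC than in RGL (29.7% of all genes) and 4 were lower in oligodendrocytes than in OPC (20%). The median log2 change of the 10 genes was 1.19 from NPC to NB1 and 1.26 from NB1 to GCmat1, beside medians over all genes of 0.06 and -0.04.

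**Figure D2:**
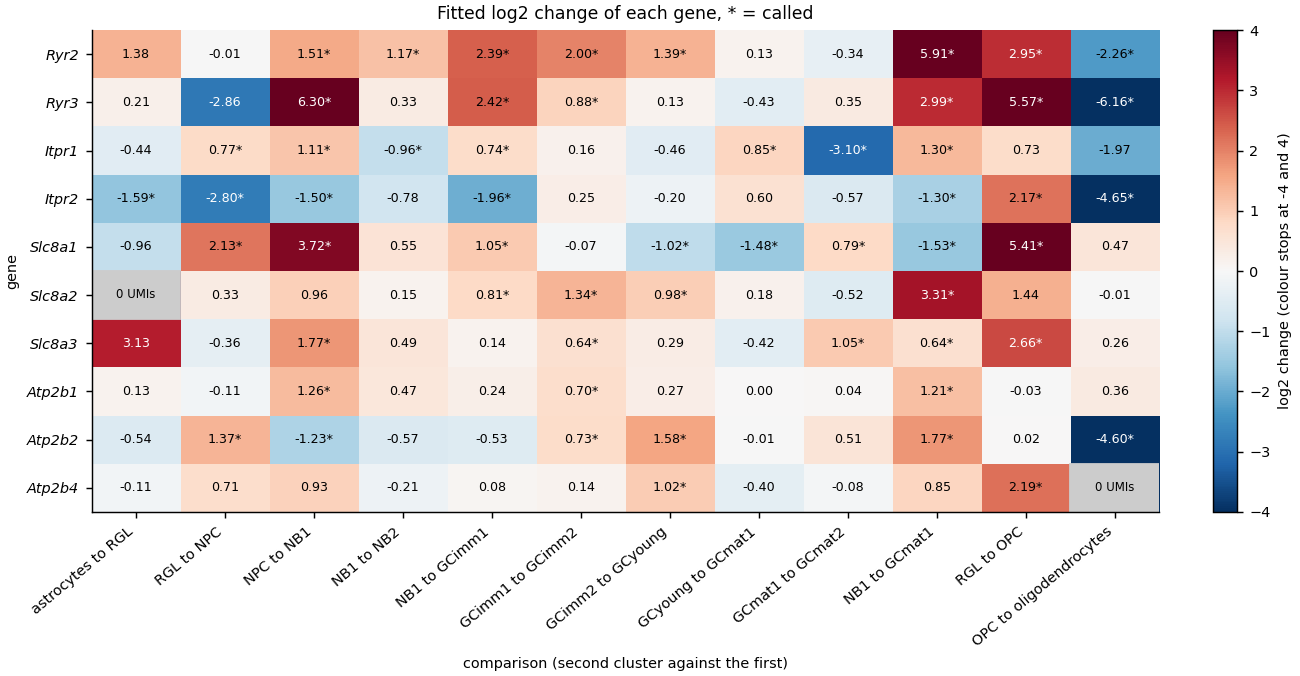
Fitted log2 change of each gene (rows) in each comparison (columns), second cluster against the first, with an asterisk where the gene was called. Grey cells mark comparisons in which 1 cluster held 0 UMIs and no fold is given. The column from NPC to NB1 holds 8 asterisks and the column from astrocytes to RGL 1.

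Ryr2, the ryanodine receptor best known from heart and also the common one in forebrain neurons, rose from neuroblasts to young granule cells and was low before that. In RGL it lay at 8.26, 11.3, 33.9 and 12.7 CPM in w1, w2, w4 and w8. In NB1 it was 37.6, 51.9 and 42.6 CPM in w1, w2 and w4. In GCimm1 it reached 129.8, 318 and 230.2 CPM in the same libraries. Each library thus had a higher level in GCimm1 than any library had in NB1. GCimm2 stood at 1086, 782 and 939 CPM in w2, w4 and w8, and GCyoung at 1876 and 1939 CPM in w4 and w8. GCmat1 held 2049, 1771 and 2020.4 CPM in w1, w4 and w8, which overlapped the range of GCyoung.

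The log2 change of Ryr2 was 2.39 ± 0.25 (SE, adjusted p = 4.81e-11) from NB1 to GCimm1, 2.00 ± 0.23 (SE, adjusted p = 2.02e-09) from GCimm1 to GCimm2 and 1.39 ± 0.25 (SE, adjusted p = 1.58e-05) from GCimm2 to GCyoung. The rise then ended, with changes of 0.13 ± 0.24 (SE, adjusted p = 0.955) to GCmat1 and -0.34 ± 0.25 (SE, adjusted p = 0.552) from there to GCmat2. Over the span from NB1 to GCmat1 it came to 5.91 ± 0.28 (SE, adjusted p = 2.94e-24). The earlier steps were less firm. NPC held 10.02, 21.6 and 52.4 CPM in w1, w2 and w4, from 5, 7 and 4 UMIs. NB1 was higher in w1 and w2 and lower in w4, where NPC stood above every NB1 library, so the ranges overlapped. From NPC to NB1 the change was 1.51 ± 0.46 (SE, adjusted p = 0.0082), and the call was lost without w1 (1.13, adjusted p = 0.17), without w2 (1.42, adjusted p = 0.0807) and in female nuclei alone (adjusted p = 0.0996). From NB1 to NB2 it was 1.17 ± 0.27 (SE, adjusted p = 0.00378), lost in 5 of 14 alternative fits, among them those without w1 (1.27, adjusted p = 0.0568), without w2 (1.08, adjusted p = 0.132) and without the library term (adjusted p = 0.0732).

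The share of nuclei with at least 1 Ryr2 UMI told the same course. It was 5.77% in RGL, 12.5% in NB1, 55.6% in GCimm1 and 99.9% in GCmat1. With every nucleus thinned to 2000 UMIs, these shares were 2.92%, 7.24%, 34.8% and 97.1%. Astrocytes had a share of 2.99% from 2 nuclei, at a median depth of 4670 UMIs beside 4091 in RGL and 8138 in GCmat1. Over all nuclei of a library, Ryr2 stood at 67.9, 401, 1496 and 1964 CPM in w1, w2, w4 and w8. The part of free RNA from granule cells in the low values of RGL, NPC and astrocytes was not tested.

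Ryr3, the ryanodine receptor first described in brain, came on in neuroblasts and was highest in GCimm2. RGL held 7.05 CPM, pooled over libraries. The log2 change from RGL to NPC was -2.86 ± 1.21 (SE, adjusted p = 0.0684), not called, though it was in 3 of 14 alternative fits. Only 1 UMI was counted in NPC, in w1, against 864 in NB1, where the 3 libraries held 75.4, 86.8 and 65.0 CPM. The ratio of the pooled levels was 72.4-fold (95% interval 12.96 to 2863), with an interval that covers counting error only, and the step was called (adjusted p = 3.94e-10). The fitted log2 change was 6.30, and 10.75 without w1, the library with the UMI, so it is no bound. The level then rose to 397, 379 and 380.4 CPM in GCimm1 of w1, w2 and w4. These 3 values lay close together, and the log2 change from NB1 was 2.42 ± 0.21 (SE, adjusted p = 1.33e-13). In GCimm2 the libraries w2, w4 and w8 held 821, 647 and 546 CPM, a log2 change of 0.88 ± 0.20 (SE, adjusted p = 0.00119) that was no longer called without w2 (0.62, adjusted p = 0.376).

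Beyond GCimm2 no single step of Ryr3 was called. GCyoung held 564 and 583 CPM in w4 and w8, and GCmat1 423, 362 and 479 CPM in w1, w4 and w8. Within w4 the level was lower in GCyoung than in GCimm2, whereas within w8 it was slightly higher. The fitted log2 change was 0.13 ± 0.22 (SE, adjusted p = 0.751) for that step and -0.43 ± 0.21 (SE, adjusted p = 0.419) for the next. GCmat2 held 511 and 607 CPM in w4 and w8, above GCmat1 in both libraries, with a log2 change of 0.35 ± 0.22 (SE, adjusted p = 0.452).

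**Figure D3:**
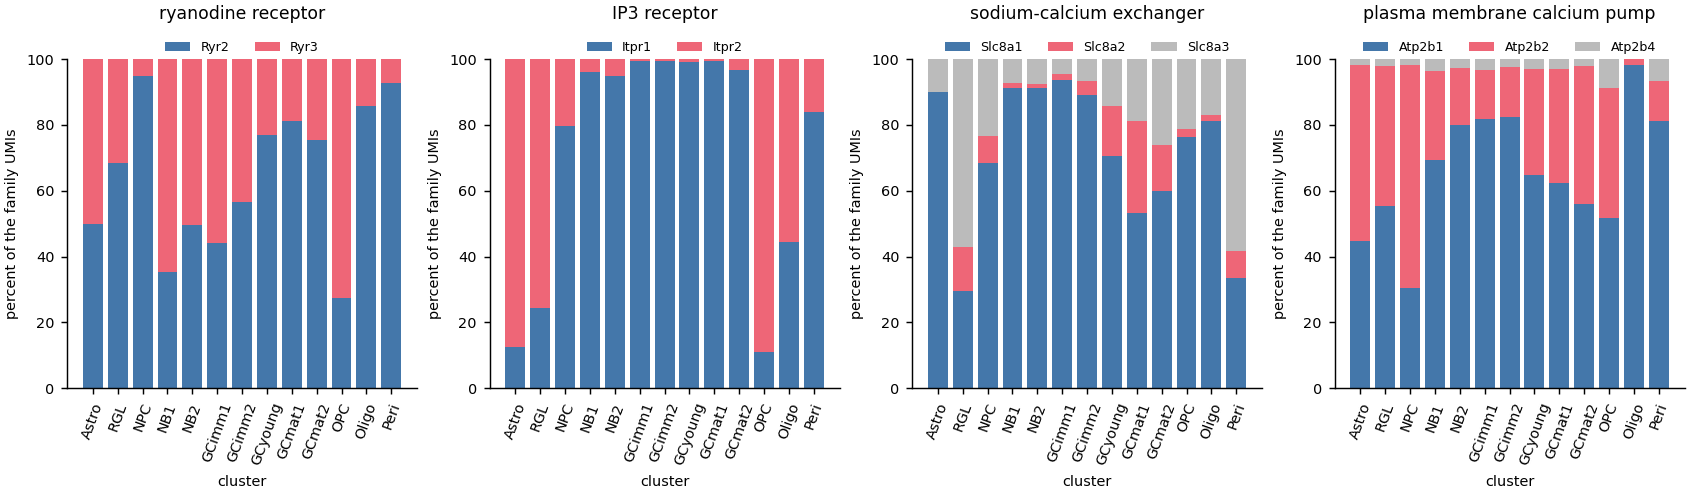
Percent of the UMIs of the listed members of each gene family that came from each member, by cluster, pooled over libraries. Ryr1, Itpr3 and Atp2b3, which are not among the listed members, are left out of the totals. Ryr3 gave 64.8% of the Ryr2 and Ryr3 UMIs in NB1 and 18.9% in GCmat1. Itpr2 gave 87.4% of the Itpr1 and Itpr2 UMIs in astrocytes and 0.544% in GCmat1. Bars for ryanodine receptors in astrocytes, NPC, oligodendrocytes and pericytes rest on 4 to 19 UMIs.

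The balance between the ryanodine receptor genes Ryr2 and Ryr3 shifted toward Ryr2 between NB1 and GCmat1. Ryr3 made up 64.8% (95% interval 62.1 to 67.3) of the Ryr2 and Ryr3 UMIs in NB1, 56.0% (95% interval 55.0 to 57.0) in GCimm1, 43.5% (95% interval 42.6 to 44.4) in GCimm2 and 18.9% (95% interval 18.6 to 19.2) in GCmat1. From GCimm1 to GCmat1 the Ryr3 share was lower with each later cluster in each library, among clusters of at least 10 nuclei, whereas from NB1 to GCimm1 it was higher in w1 and w4 and lower in w2. In w4 the share went from 60.4% in NB1 and 62.3% in GCimm1 to 45.3% in GCimm2, 23.1% in GCyoung and 17.0% in GCmat1. GCmat2 went the other way, with a Ryr3 share of 24.7% (95% interval 23.3 to 26.1) that was above that of GCmat1 in both w4 (24.3%) and w8 (24.8% against 19.2%). These shares are not corrected for gene length, so only their change between clusters can be read.

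Itpr1, the main neuronal IP3 receptor and abundant in Purkinje cells, had called rises along the path and called falls from NB1 to NB2 and from GCmat1 to GCmat2. From GCimm2 to GCyoung Itpr1 was lower in w4 and w8. That change was not called (-0.46 ± 0.22 SE, adjusted p = 0.143), nor was it in any of 14 alternative fits. In NB1 it stood at 189.8, 147 and 161 CPM in w1, w2 and w4, against 122, 67.8 and 39.3 CPM in NPC of the same libraries. All 3 libraries were higher in NB1, with a log2 change of 1.11 ± 0.26 (SE, adjusted p = 0.000523). GCyoung held 157 and 178 CPM in w4 and w8, and GCmat1 held 295, 282 and 326 CPM in w1, w4 and w8. The ranges did not overlap, and the log2 change was 0.85 ± 0.20 (SE, adjusted p = 0.00546). This call was lost without w4 (0.89, adjusted p = 0.163), without w8 (0.75, adjusted p = 0.244), without the library term (adjusted p = 0.0622) and with DESeq2 (adjusted p = 0.227). It held in male nuclei alone (1.05, adjusted p = 0.0134) and in female nuclei alone (0.87, adjusted p = 0.0101).

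The strongest difference in Itpr1 separated the mature clusters. GCmat2 held 42.0 CPM in w4 and 34.3 CPM in w8, where GCmat1 of the same libraries held 282 and 326 CPM. The log2 change was -3.10 ± 0.29 (SE, adjusted p = 5.39e-12), and it ranged from -3.58 to -2.68 over the 14 alternative fits. Only 20.1% of GCmat2 nuclei had an Itpr1 UMI, against 79.0% of GCmat1 nuclei. The difference was also called in male nuclei alone (log2 change -3.58, adjusted p = 1.86e-08) and in female nuclei alone (log2 change -2.81, adjusted p = 3.68e-08). GCmat2 nuclei carry no pseudo-time in the deposited table.

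The calls of smaller steps in Itpr1 depended on the libraries and settings fitted. From RGL to NPC the log2 change was 0.77 ± 0.28 (SE, adjusted p = 0.0328), with w1 and w2 higher and w4 lower in NPC, and the call was lost in 8 of 14 alternative fits, among them those without w1 (0.13, adjusted p = 0.861) and w8 (0.66, adjusted p = 0.0781). The direction in w4 leaned on 1 RGL nucleus with 33 UMIs. The 342 RGL nuclei of w4 with a pseudo-time below 2 held 25.3 CPM, under the 39.3 CPM of NPC in w4. NB2 was lower than NB1 by the fit (-0.96 ± 0.22 SE, adjusted p = 0.00497), with 60.9, 125 and 76.9 CPM in w1, w2 and w4. It was lost without w1 (-0.37, adjusted p = 0.807) and in female nuclei alone (-0.37, adjusted p = 0.99), and it was not called with DESeq2 (adjusted p = 0.271) or without the library term (adjusted p = 0.0548). From NB1 to GCimm1 the change in Itpr1 was 0.74 ± 0.18 (SE, adjusted p = 0.00257), with the call lost without w2 (0.69, adjusted p = 0.0625) and with DESeq2 (adjusted p = 0.0515). At this step all 3 libraries were higher in GCimm1 beyond counting error, and the change lay between 0.69 and 0.87 over the 14 alternative fits.

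Itpr2, the IP3 receptor of astrocytes, showed the reverse course to Ryr2. Astrocytes held 429, 383 and 434 CPM in w1, w2 and w4. RGL held 142, 142, 135 and 115 CPM in w1, w2, w4 and w8, and NPC 26.1, 21.6 and 26.2 CPM in w1, w2 and w4. The ranges of the 3 clusters were far apart. The fit gave a log2 change of -1.59 ± 0.18 (SE, adjusted p = 1.58e-09) from astrocytes to RGL and -2.80 ± 0.27 (SE, adjusted p = 2.13e-12) from RGL to NPC. The median change of all genes from astrocytes to RGL was 0.27 with TMM factors and 0.07 with RLE factors, under which Itpr2 changed by -1.80. Among male nuclei alone the fall from astrocytes to RGL was not called (-1.37, adjusted p = 0.0971).

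The decline of Itpr2 went on into the neurons until almost nothing was left. NB1 held 7.07 CPM (95% interval 5.58 to 8.83) and GCimm1 1.66 CPM (95% interval 1.04 to 2.52), from 77 and 22 UMIs. On the log2 scale this was a change of -1.504 ± 0.40 (SE, adjusted p = 0.00228) from NPC to NB1, lost without w1 (-1.17, adjusted p = 0.19) and in 4 of 14 alternative fits in all, and -1.96 ± 0.35 (SE, adjusted p = 2.4e-05) from NB1 to GCimm1, which became -2.83 without w2. In GCmat1 51 UMIs were found in all, or 1.75 CPM, and the call from NB1 to GCmat1 (-1.30 ± 0.36 SE, adjusted p = 0.0027) was lost in 5 of 14 alternative fits, among them those without w4 (-1.10, adjusted p = 0.081) and w8 (-1.30, adjusted p = 0.0581). The share of nuclei with an Itpr2 UMI dropped from 74.6% in astrocytes and 39.6% in RGL to 1.34% in GCmat1. Astrocyte markers (Aqp4, Grin2c, Glul, Slc1a2 and Gja1) moved with it, from a summed 9436 CPM in astrocytes to 3624 in RGL, 1041 in NPC and 475 in NB1, and all 5 had UMIs in RGL. Their part in the result was not tested.

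Slc8a1, the exchanger NCX1 that is widespread in excitable cells, formed an arch over the immature stages. In RGL the 4 libraries held between 11.3 and 19.1 CPM. NPC reached 70.1, 92.4 and 26.2 CPM, and NB1 862, 789.9 and 833 CPM, in w1, w2 and w4. No library of a later cluster overlapped an earlier one in this stretch. From RGL to NPC, however, the rise passed counting error in only 2 of the 3 libraries compared. The log2 change was 2.13 ± 0.37 (SE, adjusted p = 7.08e-06) from RGL to NPC and 3.72 ± 0.30 (SE, adjusted p = 3.12e-15) from NPC to NB1. GCimm1 held 1637, 1485 and 1611 CPM in w1, w2 and w4, and the change from NB1 was 1.05 ± 0.21 (SE, adjusted p = 0.000197). NB2 lay between them, and its change from NB1 was 0.55 ± 0.22 (SE, adjusted p = 0.243), not called, though it was with RLE factors (0.64, adjusted p = 0.0305), in sums of at least 50 nuclei (0.62, adjusted p = 0.00927) and after thinning (0.61, adjusted p = 0.0301). Of the GCimm1 nuclei 96.9% had a Slc8a1 UMI.

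The arch came down from GCimm2 on. GCimm2 held 1375, 1470.2 and 1486 CPM in w2, w4 and w8, GCyoung 515 and 703 CPM in w4 and w8, and GCmat1 122, 249 and 209.8 CPM in w1, w4 and w8. Within w4 and within w8 each cluster was below the one before it. The fit gave a log2 change of -1.02 ± 0.25 (SE, adjusted p = 0.00197) from GCimm2 to GCyoung, where the call was lost without w4 (-0.95, adjusted p = 0.2), and -1.48 ± 0.24 (SE, adjusted p = 2.24e-05) from GCyoung to GCmat1. From NB1 to GCmat1 the fall was -1.53 ± 0.24 (SE, adjusted p = 5.8e-07). Sexes were unequal in these clusters, with 446 male and 1665 female nuclei in GCyoung and 2327 male and 727 female nuclei in GCmat1. The change to GCmat1 was -1.46 in male and -1.27 in female nuclei, both called. GCmat2 was higher than GCmat1, at 402 and 373 CPM in w4 and w8, but this change (0.79 ± 0.26 SE, adjusted p = 0.0436) was lost in 7 of 14 alternative fits, among them those without w2 (0.82, adjusted p = 0.0715), w4 (0.94, adjusted p = 0.147) and w8 (0.86, adjusted p = 0.257).

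Slc8a2, the exchanger NCX2 of brain neurons, rose late and stayed high. No UMI was found in astrocytes, which allows up to 8.95 CPM, and in NB1 the level was 11.6, 17.1 and 22.4 CPM in w1, w2 and w4. GCimm1 held 15.3, 27.9 and 33.9 CPM in the same libraries, GCimm2 70.03, 65.6 and 39.97 CPM in w2, w4 and w8, and GCyoung 115 and 105 CPM in w4 and w8. The libraries of NB1 and GCimm1 overlapped, those of the later clusters did not. On the log2 scale this was a change of 0.81 ± 0.23 (SE, adjusted p = 0.00868) from NB1 to GCimm1, 1.34 ± 0.19 (SE, adjusted p = 3.81e-07) to GCimm2 and 0.98 ± 0.20 (SE, adjusted p = 0.000154) to GCyoung. The first was lost in 4 of 14 alternative fits, among them that without w2 (0.67, adjusted p = 0.405), and the last without w4 (1.26, adjusted p = 0.0677). From NB1 to GCmat1 the change was 3.31 ± 0.24 (SE, adjusted p = 7.44e-17), the opposite direction to Slc8a1. Slc8a1 accordingly went from 91.1% of the UMIs of the 3 exchangers in NB1 to 53.2% in GCmat1, and Slc8a2 from 1.54% to 27.9%.

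Slc8a3, the exchanger NCX3 of muscle and brain, varied less. It rose from NPC to NB1, where the 3 libraries held 60.8, 72.2 and 109.8 CPM in w1, w2 and w4. The log2 change was 1.77 ± 0.36 (SE, adjusted p = 7.74e-05), and 4.30 without w1, with 42.1 CPM in NPC of w1, 6.16 in w2 and no UMI in w4. In male nuclei alone it was not called (0.98, adjusted p = 0.059). Between the mature clusters, GCmat2 held 164 and 169 CPM in w4 and w8 against 76.8, 76.8 and 75.5 CPM in GCmat1 of w1, w4 and w8. The groups did not overlap, with a log2 change of 1.05 ± 0.22 (SE, adjusted p = 0.000411) that was not called without w8 (1.01, adjusted p = 0.0843) or in female nuclei alone (0.94, adjusted p = 0.109). The change from GCimm1 to GCimm2 (0.64 ± 0.19 SE, adjusted p = 0.0203) was lost in 5 of 14 alternative fits, among them those without w2 (0.46, adjusted p = 0.646) and w4 (0.67, adjusted p = 0.0867). The change from NB1 to GCmat1 (0.64 ± 0.23 SE, adjusted p = 0.0187) was lost in 8 of 14 alternative fits, and without w1, w2 or w8 it was 0.56, 0.54 and 0.52, whereas without w4 it was 1.04, adjusted p = 0.0149. Of the libraries that held both clusters, w1 was higher in GCmat1 and w4 was lower, the latter beyond counting error. Astrocytes held 2.98 CPM of Slc8a3, from 1 UMI, and RGL 26.7 CPM, a ratio of 8.96-fold (95% interval 1.59 to 356). The test gave an adjusted p of 0.0833, or 0.0378 without w4 and 0.0444 without w8.

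Atp2b1, the pump PMCA1 that nearly every cell uses, was present throughout and rose in steps. It was detected in 44.3% of RGL and 97.7% of GCmat1 nuclei. NPC held 156, 191 and 183 CPM and NB1 325, 368 and 399 CPM in w1, w2 and w4. Every NB1 value was above every NPC value, with a log2 change of 1.26 ± 0.21 (SE, adjusted p = 2.02e-06). GCimm1 held 318, 419 and 455 CPM, and GCimm2 583, 682 and 619.5 CPM in w2, w4 and w8. The change of 0.70 ± 0.18 (SE, adjusted p = 0.00406) lost its call without w2 (0.74, adjusted p = 0.15), without w4 (0.68, adjusted p = 0.132) and in female nuclei alone (adjusted p = 0.051). From NB1 to GCmat1 it came to 1.21 ± 0.19 (SE, adjusted p = 2.76e-07), and from GCyoung to GCmat1 the pooled levels were 670.1 and 618 CPM.

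Atp2b2, the pump PMCA2 known for fast clearance in neurons and hair cells, had 2 separate high points. RGL held 131, 118, 107 and 112 CPM in w1, w2, w4 and w8, and NPC 459, 348 and 236 CPM in w1, w2 and w4. In NB1 the same 3 libraries were back at 149.6, 107 and 157 CPM. NPC was above both neighbours in each library. The fit gave a log2 change of 1.37 ± 0.19 (SE, adjusted p = 5.29e-08) from RGL to NPC and -1.23 ± 0.19 (SE, adjusted p = 8.95e-07) from NPC to NB1. Of the NPC nuclei 73.0% had an Atp2b2 UMI, against 33.6% of RGL and 35.1% of NB1 nuclei.

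The second rise of Atp2b2 came at the passage to young granule cells. GCimm2 held 108, 126 and 153 CPM in w2, w4 and w8, and GCyoung 334 and 317 CPM in w4 and w8. The ranges were well apart, with a log2 change of 1.58 ± 0.20 (SE, adjusted p = 1.54e-08). The step before it, from GCimm1 to GCimm2, was 0.73 ± 0.19 (SE, adjusted p = 0.00585) and was not called without w2 (0.72, adjusted p = 0.231), without the library term (adjusted p = 0.0704) or in male nuclei alone (0.45, adjusted p = 0.522). GCmat2 held 475 and 481 CPM in w4 and w8, and its change from GCmat1 was 0.51 ± 0.19 (SE, adjusted p = 0.113), under the threshold.

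Atp2b4, the pump PMCA4, had few UMIs throughout. Within the trajectory it reached at most 31.5 CPM in a cluster pooled over libraries and at most 42.0 CPM in a single library, in GCmat2 of w4. GCimm2 held 17.6, 16.4 and 0 CPM in w2, w4 and w8, and GCyoung 31.5 and 33.5 CPM in w4 and w8. Both GCyoung values were above all 3 of GCimm2. The change of 1.02 ± 0.32 (SE, adjusted p = 0.017) was lost in 5 of 13 alternative fits, among them that without w4 (0.97, adjusted p = 0.599). From NB1 to GCmat1 it was 0.85 ± 0.37 (SE, adjusted p = 0.0637), not called, but it was called in 4 of 13 alternative fits, among them that without w1 (1.43, adjusted p = 0.00428).

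**Figure D4:**
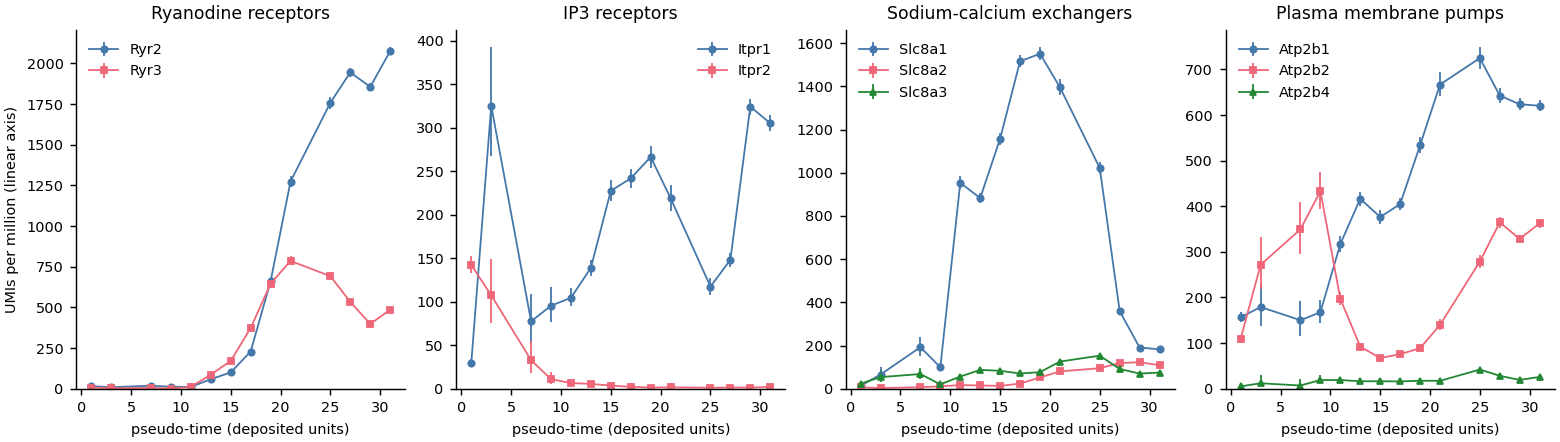
Level of each gene in UMIs per 1000000 (linear axis) over the deposited pseudo-time, in windows of 2 units with at least 50 nuclei, pooled over libraries, with 95% Poisson intervals that cover counting error only. Slc8a1 is highest in the window from 18 to 20, at 1551 CPM, where Ryr2 stands at 661 CPM on its way to 2076 CPM.

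The deposited pseudo-time, which GCmat2 and 220 of the 3356 GCmat1 nuclei lack, resolved the order of these changes further. Each gene is read here against its own highest value. Slc8a1 went from 99.4 CPM in the window from 8 to 10 to 954 CPM in the next, on the way to 1551 CPM. In that second window Ryr2 and Ryr3 were still at 10.9 and 11.4 CPM. Ryr3 stood at 86.6 CPM between 12 and 14 and at 645 CPM between 18 and 20, and was highest between 20 and 22, at 786 CPM. Ryr2 stood at 58.7 and 661 CPM in the windows from 12 and from 18, and was highest in the last window, at 2076 CPM. Itpr1 had a low stretch late in the course. Between 18 and 20 it stood at 266 CPM, between 24 and 26 at 117 CPM and between 28 and 30 at 324 CPM. Atp2b2 was at 433 CPM between 8 and 10, at 67.3 CPM between 14 and 16 and at 365 CPM between 26 and 28. The value of 325 CPM for Itpr1 between 2 and 4 rests largely on 17 of 61 RGL nuclei, of which 1 alone held 33 UMIs. Pseudo-time was built from the same expression values, so these courses are descriptions and no test was made on them.

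Outside the neuronal path, OPC held Itpr2, Ryr3 and Slc8a1 at levels that no trajectory cluster combined. OPC held 568, 569, 569.8 and 507 CPM of Itpr2 in w1, w2, w4 and w8, and 87.0% of their nuclei had a UMI. The same libraries held 291, 321, 351 and 256 CPM of Ryr3. Slc8a1 lay at 667, 496, 507 and 540.3 CPM. All 12 of these values were above every RGL value of the same gene. Against RGL the log2 change was 2.17 ± 0.14 (SE, adjusted p = 2.96e-19) for Itpr2, 5.57 ± 0.28 (SE, adjusted p = 4.18e-24) for Ryr3, 5.41 ± 0.27 (SE, adjusted p = 1.15e-24) for Slc8a1, 2.66 ± 0.27 (SE, adjusted p = 3.76e-12) for Slc8a3 and 2.95 ± 0.33 (SE, adjusted p = 5.64e-11) for Ryr2, the last 3.58 without w4. Atp2b4 was called too (2.19 ± 0.67 SE, adjusted p = 0.0089), but not without w1 (1.53, adjusted p = 0.13) or w2 (1.74, adjusted p = 0.133), and without w4 it was 2.85. Slc8a2 was higher in OPC than in RGL in w2 and w8 and lower in w1 and w4, with OPC between 0 and 43.8 CPM. Its change (1.44 ± 0.67 SE, adjusted p = 0.103) was called only without w4 (2.50, adjusted p = 0.00326) or with DESeq2 (1.54, adjusted p = 0.0351), and without w2 it turned to -0.57, adjusted p = 0.793. Itpr1 (0.73 ± 0.33 SE, adjusted p = 0.0892) was called only with DESeq2 or RLE factors. Atp2b1 and Atp2b2 gave log2 changes of -0.03 and 0.02, with SEs of 0.22 and 0.24.

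Slc8a1 and Slc8a3 kept up their levels in oligodendrocytes, where the release channels gave few UMIs. Slc8a1 stood at 938, 907 and 884 CPM in w2, w4 and w8, and Slc8a3 at 169, 171 and 299.6 CPM. Neither was called against OPC, with log2 changes of 0.47 ± 0.25 (SE, adjusted p = 0.187) and 0.26 ± 0.35 (SE, adjusted p = 0.682), though Slc8a1 was called higher with DESeq2 (0.61, adjusted p = 0.0307). Itpr2, with 5 UMIs in the 45 nuclei, was called lower (-4.65 ± 0.38 SE, adjusted p = 4.32e-15, and -6.35 without w4), as was Ryr2 (-2.26 ± 0.61 SE, adjusted p = 0.0041, not called after thinning). Ryr3 and Atp2b2 had 1 UMI each in oligodendrocytes, in w8 and in w4. Their pooled levels in OPC were 67.0-fold (95% interval 11.9 to 2659.8) and 23.7-fold (95% interval 4.13 to 951) those in oligodendrocytes, with adjusted p of 5.73e-10 and 6.08e-05. Without the library that held the UMI there was none to compare, and the fitted changes then moved to -12.40 and -10.69, which are no bounds. Itpr1, with 4 UMIs, was not called (-1.97 ± 0.77 SE, adjusted p = 0.0626), though it was without w4 (-3.58, adjusted p = 0.0213) and without the low-count filter (-2.08, adjusted p = 0.0342). Atp2b4 had no UMI, which makes OPC at least 1.74-fold higher against a floor of 3 counts over the cluster. It was not called, though it was without the low-count filter.

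Pericytes were the cluster with the highest level of Itpr1. They held 1038 CPM in w1 and 636 CPM in w2, and 91.7% of the 60 nuclei had a UMI. Both values lay above every library of every other cluster. Itpr2 stood at 173 and 137 CPM in the same libraries, whereas Slc8a1 was at 30.5 and 4.71 CPM. The 5 vascular markers summed to 1083 CPM in pericytes and to at most 89.5 CPM elsewhere, and their part in the result was not tested. No comparison with pericytes was tested.

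The wider calcium machinery was read from the same fits, through a list of 68 other genes for pumps, exchangers, store-operated entry, mitochondrial uptake, lumenal buffers, partners of the release channels and IP3 metabolism. Of these, 53 were tested in the trajectory. From RGL to NPC 5 rose and 10 fell, or 28.3% of the list where 29.5% of all genes were called, and from NPC to NB1 11 rose and 9 fell, or 37.7% against 29.3%. From NB1 to NB2 6 rose and none fell (11.3% against 2.94%), from NB1 to GCimm1 6 rose and 5 fell (20.8% against 12.5%) and from GCimm1 to GCimm2 8 rose and 1 fell (17.0% against 9.43%). From GCimm2 to GCyoung 9 rose and 4 fell (24.5% against 18.9%), from GCyoung to GCmat1 2 rose and none fell (3.77% against 3.85%) and from GCmat1 to GCmat2 3 rose and 5 fell (15.1% against 7.3%). Over the span from NB1 to GCmat1 18 rose and 11 fell (54.7% against 40.1%). In RGL, 2 were higher and 6 lower than in astrocytes (15.1% against 9.58%). The genes named from the list are among those with the largest called changes in each comparison.

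Atp2b3, the PMCA isoform outside the chosen 10, had 1.09 CPM in NPC from 1 UMI and 106 CPM in NB1, a ratio of 97.1-fold (95% interval 17.4 to 3839.9) with an adjusted p of 8.09e-13. Rcn1, a calcium-binding protein of the endoplasmic reticulum lumen, and Slc8b1, the mitochondrial sodium-calcium exchanger, fell at this step, with log2 changes of -3.37 ± 0.66 (SE, adjusted p = 4.84e-05) and -2.83 ± 0.65 (SE, adjusted p = 0.000428). Slc24a2, a potassium-dependent exchanger of neurons, rose by 2.54 ± 0.28 (SE, adjusted p = 9.43e-11).

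Among the potassium-dependent exchangers, Slc24a4 and Slc24a3 rose from NB1 to GCimm1 by 3.99 ± 0.29 (SE, adjusted p = 1.06e-15) and 2.58 ± 0.19 (SE, adjusted p = 1.06e-15) on the log2 scale, and both also rose from NB1 to NB2 (3.11 ± 0.35 SE, adjusted p = 2.74e-09 and 1.17 ± 0.21 SE, adjusted p = 0.000108), a step at which Itpkb, an IP3 kinase, and Mcu, the mitochondrial uniporter, rose too (1.29 and 0.94). From NB1 to GCimm1 Pln, the phospholamban that restrains the endoplasmic reticulum pump, and Plcb4 fell (-1.43 and -1.15). Plcb4, a phospholipase C isoform, fell further from GCimm1 to GCimm2, with a log2 change of -4.32 ± 0.29 (SE, adjusted p = 4.09e-16), while Plcg2, the IP3 kinase Itpka and Jph1 rose by 2.41, 1.48 and 1.38. Jph1 encodes a junctophilin, which ties release channels to the surface membrane. From GCimm2 to GCyoung Itpka, Plcg2, Jph1 and Nptn, a partner of the plasma membrane pumps, rose by 1.67, 1.64, 1.25 and 1.34. Over the span from NB1 to GCmat1 the largest changes were those of Plcb4 (-6.49), Slc24a4 (5.41), Plcg2 (3.74) and Itpka (3.52).

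The mature clusters also differed in other genes of store release. From GCyoung to GCmat1 the 2 called were Homer2 (1.51 ± 0.31 SE, adjusted p = 0.000745), a scaffold that binds IP3 receptors, and Ryr1 (0.84 ± 0.18 SE, adjusted p = 0.00106). From GCmat1 to GCmat2 Ryr1 fell from 66.0 to 4.49 CPM, a log2 change of -4.03 ± 0.39 (SE, adjusted p = 3.49e-11), in the same direction as Itpr1. Homer2 fell to 3 UMIs in GCmat2, with GCmat1 7.04-fold (95% interval 2.39 to 34.3) higher, the log2 change of Jph1 was -1.61 ± 0.23 (SE, adjusted p = 4.61e-07) and that of Plcb4 3.95 ± 0.41 (SE, adjusted p = 1.38e-10). Of the 5 genes of store-operated entry tested, Stim2 and Orai2 were lower in GCmat2 (-1.36 and -1.17). At this step 15.1% of the whole list and 7.3% of all genes were called. Stim2 and Orai2 were named to complete the count of store-operated entry, after their values were seen.

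Between astrocytes and RGL, Cd38, which makes the calcium-mobilising cyclic ADP-ribose, went from 80.6 CPM in astrocytes to 0.656 CPM in RGL, a log2 change of -7.02 ± 0.70 (SE, adjusted p = 1.19e-10). Slc24a4 was also lower in RGL (-2.09), whereas Homer2 was higher (1.88) and Calu, a lumenal calcium binder, rose from 3 UMIs with a ratio of 4.91-fold (95% interval 1.66 to 24.0). From RGL to NPC Ryr1 and Jph1 rose (2.63 and 2.51), while Slc24a4 and Atp2b3 fell to 2 and 1 UMIs, RGL being 9.96-fold (95% interval 2.703 to 83.1) and 8.68-fold (95% interval 1.498 to 349) higher. Over the 10 comparisons of the trajectory and astrocytes, Ryr1, the ryanodine receptor of skeletal muscle, was called in 7, in both directions.

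Among the glia, 51 of the list were tested. Against RGL, 9 were higher and 11 lower in OPC (39.2% of the list, where 29.7% of all genes were called). Slc8b1 and Slc24a4 had no UMI in OPC, so RGL was at least 9.67-fold and 4.91-fold higher against a floor of 3 counts over the cluster, and Jph1 had 3 UMIs, with RGL 8.74-fold (95% interval 2.96 to 42.7) higher. Slc24a3 was higher in OPC (2.43 ± 0.22 SE, adjusted p = 4.87e-14). From OPC to oligodendrocytes 6 were higher and 11 lower (33.3% against 20%). Slc24a2 rose by 6.54 ± 0.26 (SE, adjusted p = 9.8e-28) to 4780.0 CPM. Orai1, the store-operated channel, had 1 UMI in oligodendrocytes, with OPC 21.1-fold (95% interval 3.66 to 848) higher, and Itpkb and Homer2 had none, so OPC was at least 3.36-fold and 2.06-fold higher. The endoplasmic reticulum pump Atp2a2, which refills the stores, was called in none of the 12 comparisons by the edgeR test, with log2 changes from -0.82 to 0.38.

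The genes whose levels followed each member most closely were found by Pearson's r of log2(CPM + 1) over the 29 sums of the trajectory clusters and astrocytes, among 9890 genes with a mean of at least 10 CPM. The sums share libraries and depth, and r serves as a description. For Ryr2 they included Dlgap2 (r = 0.972) and Lurap1l (r = 0.957), and for Ryr3 Csrnp3 (r = 0.977), Tenm2 (r = 0.963) and Scn1a (r = 0.955). Scn1a encodes a sodium channel. For Itpr1 the closest were Pla2g4e (r = 0.849), Trpc5 (r = 0.842) and Cblb (r = 0.835), and for Itpr2 Gja1 (r = 0.975), Mertk (r = 0.974) and Ppara (r = 0.970). Gja1, the astrocyte connexin, is also 1 of the 5 astrocyte markers. Slc8a1 went with Ralyl (r = 0.962), Ptpro (r = 0.959) and Macrod2 (r = 0.953), Slc8a2 with Slc12a5 (r = 0.958), Rapgef4os1 (r = 0.949) and Clvs2 (r = 0.946), and Slc8a3 with 4430402I18Rik (r = 0.951), Zfyve28 (r = 0.947) and Gnb5 (r = 0.931). Slc12a5 encodes the chloride exporter KCC2 of maturing neurons. Atp2b1 went with Slc1a1 (r = 0.961), Slc7a14 (r = 0.957) and Caln1 (r = 0.954), Atp2b2 with Tle1 (r = 0.893), Iqgap2 (r = 0.857) and Gpc4 (r = 0.856), and Atp2b4 with Tmem198 (r = 0.843), Gpr22 (r = 0.803) and Ehd3 (r = 0.796). Itpr1, Atp2b2 and Atp2b4 had no gene above r = 0.9.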

How the data were processed

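Nuclei were sorted for the Sun1-sfGFP reporter and profiled with 10x Genomics 3′ chemistry, 1 library per week after tamoxifen, 2 time points being processed on a day; which weeks shared a day is not given in the sources used here. The deposited counts are raw UMIs per gene and barcode, which the authors obtained with STARsolo 2.7.4a on mm10 over exons and introns, leaving out multimapping reads. The deposited expression table, in which the authors gave cluster, sex call and pseudo-time, holds log2 values of counts over scran size factors plus 1 for the 14367 of 17046 barcodes they kept after removing doublets with scDblFinder, low-quality nuclei, small components of the neighbour graph and w4 clusters, mostly of male nuclei, that they held to be possibly 1 outlier animal. The nuclei removed were not analysed here. The table lists 9 of the 10 genes (not Atp2b1) and was used only for its cluster and pseudo-time labels and for an alternative scale.

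Raw UMIs were summed per library and cluster with at least 10 nuclei. The 29 sums of the trajectory and astrocytes entered edgeR 4.0.16 (R 4.3.3) with cluster and library as terms, TMM factors, filterByExpr (13513 features) and the quasi-likelihood test with Benjamini-Hochberg adjustment. RGL against OPC and OPC against oligodendrocytes came from the 38 sums of all clusters (11548 features). The SE given with a log2 change was derived from the test, as the absolute change over the square root of its F value. It was not estimated separately. Levels are UMIs per 1000000 (CPM) with exact Poisson 95% intervals, and shares have exact Clopper-Pearson intervals. Both cover counting error only, and a level of 0 was given a floor of 3 counts. Thinning to 2000 UMIs left out 141 nuclei. Sex was called here from raw UMIs, as male where Ddx3y, Uty and Eif2s3y together exceeded Xist and Tsix, and as female in the reverse case. This left 1221 nuclei without a call, among them 302 in GCmat1 and 65 in GCyoung. As tested on simulated data with the sizes of these libraries, a fold of 2 was recovered for 13 of 98 genes from astrocytes to RGL and for 68 of 101 from GCimm1 to GCimm2. False calls among the unchanged genes ranged from 2 (RGL to NPC) to 23 (GCyoung to GCmat1). In the latter comparison 54 of 99 genes with a fold of 2 and 91 of 101 with a fold of 4 were recovered. The simulated counts were drawn around each gene's mean over the 29 sums. Only 200 genes changed, in 1 cluster, with no other cluster or library differences, so these rates need not carry over to the real data. DESeq2 1.42.0 served as an alternative.

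All 10 genes are named throughout. Of the wider calcium list, the 4 called genes with the largest log2 change per comparison are named, with further genes where a count of 5 or fewer needed them. The members and lists were chosen with earlier results of these data known. For each member, the 3 genes of most similar course were taken, and 1 of them, like the driver of the Cre allele, is not reported here.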

Additional observations from a re-analysis of the deposited data

Results flagged for a closer look

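In 4 of 120 pairs of gene and comparison, single libraries moved in opposite directions beyond their counting intervals. Each library is 1 pool, and the difference between libraries was not tested. For Slc8a3, the log2 ratio of NPC over RGL was 0.84 in w1 and -2.26 in w2. For Atp2b4, the log2 ratio of GCimm1 over NB1 was 1.68 in w4 and -1.58 in w1, and that of GCmat2 over GCmat1 was 1.41 in w4 and -0.83 in w8. For Ryr2, the log2 ratio of GCmat1 over GCyoung was 0.0591 in w8 and -0.0829 in w4.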

How the results depend on the processing

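Of 1648 log2 changes of the 10 genes under the alternatives, 1519 kept their side of the threshold, 26 gained a call and 103 lost it. The 1648 include changes that were not called in the main fit and so could not lose a call. Of the 103 losses, 23 came from the mean log2 value per nucleus, which has no test. No called change reversed, though the sign of changes that were not called could turn. From astrocytes to RGL, 1 gene was called, against 2 with DESeq2 or without the low-count filter, 0 in male nuclei alone and 1 to 2 when a library was left out. From RGL to NPC, 3 were higher and 1 lower. Without w1 this became 2 higher and 3 lower, and without w8 or without the low-count filter 2 higher and 2 lower. It was 2 higher and 1 lower without the library term, with DESeq2, after thinning and in either sex alone. From NB1 to NB2, 2 were called, against 0 without the library term, with DESeq2 or in female nuclei alone, 3 with RLE factors, in sums of at least 50 nuclei or after thinning, and 0 to 2 when a library was left out. From GCyoung to GCmat1, 2 were called, against 1 without the library term or with DESeq2 and 1 to 2 when a library was left out. From GCmat1 to GCmat2, 3 were called, against 1 in female nuclei alone and 1 to 3 when a library was left out. Leaving out a library gave 2 to 6 from GCimm1 to GCimm2, where 6 were called, and 2 to 5 from GCimm2 to GCyoung, where 5 were. By a fold of 1.5 on the mean deposited log2 value per nucleus, with no test, the counts were 1 from RGL to NPC (4 in the test), 2 from NPC to NB1 (8), 1 from NB1 to NB2 (2), 3 from NB1 to GCimm1 (6), 2 from GCimm1 to GCimm2 (6), 3 from GCimm2 to GCyoung (5), 1 from GCyoung to GCmat1 (2) and 1 from GCmat1 to GCmat2 (3). That table lacks Atp2b1, and the gene past the fold from NB1 to NB2 was Slc8a1, which the test did not call. The threshold here was the log2 of 1.5 as a difference in means, and such means are compressed where many nuclei hold 0. Itpr2, at a mean of 0.100 in NPC, could not pass it by falling to NB1, and Ryr3 rose by 0.268 there. The lower counts and the 23 losses are thus set in part by the scale. Where a library or a sex was left out, fewer sums were fitted, and the cause of the other changes was not tested. Sums of at least 50 nuclei gave no value where astrocytes, OPC or oligodendrocytes entered. With equal weight per library 3 levels moved beyond 1 SD and 127 did not, and after thinning 23 did and 107 did not. With 1 pool per week, weeks and pools cannot be told apart, and clusters of few nuclei limit the depth of astrocyte, NPC, GCmat2 and oligodendrocyte values.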

Other observations

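The 1387 RGL nuclei were not uniform along the deposited pseudo-time. Itpr1 stood at 29.6 CPM in the 1317 RGL nuclei with a pseudo-time below 2 and at 342 CPM in the 61 between 2 and 4. Its UMIs in the second group were uneven: 34 UMIs in w4 came from 2 of 10 nuclei and 26 of 39 UMIs in w2 from 1 nucleus. Atp2b2 was spread more evenly, at 109.9 CPM below 2 and, between 2 and 4, at 296, 272 and 263 CPM in w1, w2 and w4, where 35 of 61 nuclei held a UMI. The 4 markers of cycling progenitors summed to 1.56 CPM below 2 and to 239 CPM between 2 and 4, and their part in these values was not tested.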
